A study of Mus musculus and Rattus norvegicus with 53 samples.

Results

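Schwann cells (SCs) of the nerve bridge (bSCs) were compared with SCs of the distal stump (dSCs) of the same nerve 6 days after the sciatic nerve was cut, in 3 animals whose nerves were profiled singly. The 6 libraries were chosen by their labels, which give the region, the day and the animal, out of 53 libraries in the series and 35 single-nerve mouse libraries. All animals were tdTomato+ mice in which a Cre recombinase active in the SC lineage switches on a tdTomato reporter at Rosa26, and the sorted cells were the tdTomato+ cells. The reporter therefore marks every cell with a history of Cre activity, and the sort does not by itself separate SCs from other cells that carry the label. The sciatic nerve was transected in mice of both sexes, and the 2 groups share genotype, injury and day and differ in the region that was dissected. The animals are called M0, M1 and M3 after the labels.

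After transection, SCs of the distal stump lose their myelinating character and help to clear myelin inside the tubes of basal lamina that the axons have left. The bridge is new tissue that forms between the cut ends from matrix, macrophages, fibroblasts and blood vessels, and SCs migrate into it as cords that guide regrowing axons. Proliferation, matrix production and inflammatory signalling are the programmes for which SCs of injured nerve are best known.

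Counts on genes were between 11647655 and 17757196 in the 6 libraries, and 12136 to 14206 genes had at least 1 count. Of 24016 genes listed, 7171 reached the count minimum of 100 counts in at least 85% of the single-nerve libraries and were tested. Spike-in counts are reads of foreign control RNA. They were sparse in all 35 single-nerve libraries, with a median of 6 and at most 182, against 777 to 99680 in the 12 pooled libraries. Whether these few reads come from RNA added in a fixed amount to each single nerve was not tested. In bSCs there were 0, 6 and 22 spike-in counts in M0, M1 and M3, against 78, 53 and 45 in dSCs. As CPM, the count scaled to a common total of gene counts, the mean was 0.667 in bSCs and 4.04 in dSCs, without overlap (two-sided exact permutation test, p = 0.1, the smallest that 3 against 3 allows). Spike-in counts varied widely within groups at other days. In single nerves of day 4 they were 2, 95 and 5 in bSCs and 0, 126 and 0 in dSCs. The spike-in ratio is not taken here as a measure of RNA content. Counts are therefore relative to the sequenced RNA of each library, and fewer cells of a type and less RNA per cell cannot be told apart.

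The labelled cell type was checked against 16 markers of the SC lineage, none of which was at 0 in all 6 libraries. Their summed level was 1536, 2754 and 5151 in the bridges of M0, M1 and M3 and 3534, 3346 and 3642 in the distal stumps. The bridge sum was thus below the distal sum in M0 and M1 and above it in M3. Sox10, the transcription factor that defines the lineage, was at 44.0, 51.1 and 112 CPM in the bridges and at 166, 114 and 98.8 CPM in the distal stumps. The groups overlapped for Sox10, and it did not pass the test (log2 fold change -0.87). Macrophage transcripts were present in all libraries: the 18 macrophage markers summed to 5740, 9790 and 1395 CPM in the bridges and to 13615, 16106 and 3197 CPM in the distal stumps. They were lower in the bridge of every animal, and both libraries of M3 held far fewer than those of M0 and M1. Endothelial markers, 14 genes, summed to 1007, 1827 and 5705 CPM in the bridges and to 989, 787 and 3193 CPM in the distal stumps, highest in both libraries of M3. Markers of neutrophils and lymphocytes summed to at most 11.8 CPM in any of the 6 libraries, and 6 of the 11 found in the files, of 13 listed, were at 0 throughout. The part of these cells in the differences below was not tested except where a value is given.

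**Figure D1:**
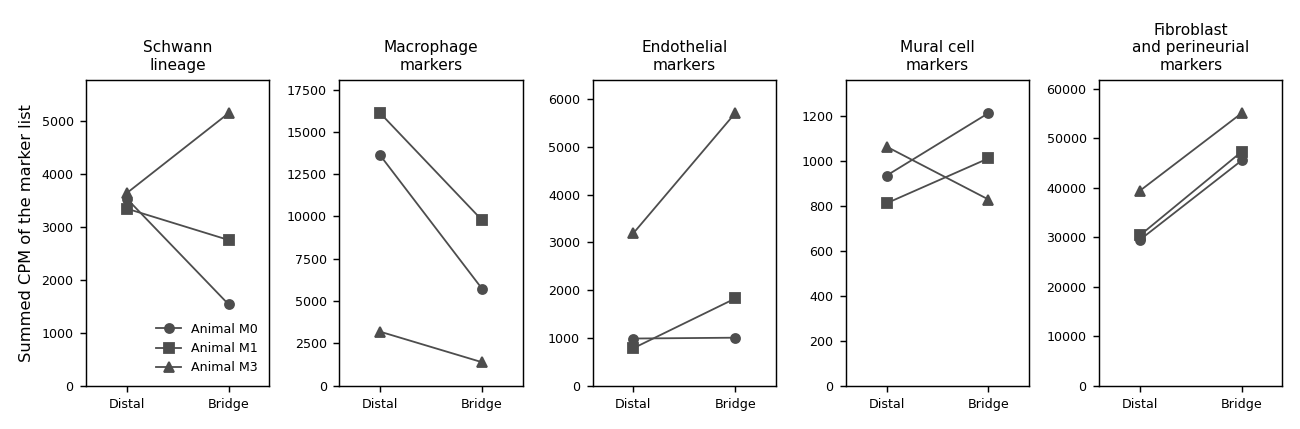
Summed CPM of 5 marker lists in the distal stump and the bridge of each animal, with a line joining the 2 libraries of an animal and each axis starting at 0. Macrophage sums are lower and fibroblast and perineurial sums higher in the bridge of all 3 animals, and M3 differs from M0 and M1 in macrophage and endothelial sums in both regions.

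The first comparison asked which genes differ between bSCs and dSCs at day 6. With group means over all 35 single-nerve libraries, 1 of the 7171 genes passed an adjusted p of 0.05 in edgeR's quasi-likelihood test (0.0139% of genes tested), and 466 (6.50%) had an unadjusted p under 0.05. That gene was Adh1, an alcohol dehydrogenase that takes part in retinol metabolism, on chromosome 3 from 137923955 to 137953662 of build NCBIM37 (mm9). Adh1 was at 0, 1.90 and 0 CPM in the bridges of M0, M1 and M3 and at 63.4, 114 and 69.4 CPM in the distal stumps. No bridge library had more than 23 counts of it and no distal library fewer than 1062, so the groups were far apart. It fell in bSCs with a log2 fold change of -7.05 ± 1.14 (SE, n = 3 per group, edgeR adjusted p = 0.00578), and the intact nerves of the same series held 129 to 533 CPM. The call of Adh1 was lost when the bridge library of M0 (0 genes called) or of M3 (0 genes called) was left out.

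Because each bridge shares its animal with a distal stump, the test was repeated with the animal as a block in the 6 libraries. Then 20 genes passed an adjusted p of 0.05 (0.279% of genes tested), 6 higher in the bridge (0.0837%) and 14 lower (0.195%), and 940 (13.1%) had an unadjusted p under 0.05. DESeq2 without the block called 14 genes. The blocked fit has 2 residual degrees of freedom, and its count moved with each animal: 9 genes passed without M0, 0 without M1 and 98 without M3. Other blocked fits differed widely. A block over all 11 pairs of days 4 to 10, with 7 residual degrees of freedom, called 1 gene, which was among the 20 (1061 genes at an unadjusted p under 0.05). The 6-library block with the looser filterByExpr filter called 0 of 12704 genes in edgeR (1139 at an unadjusted p under 0.05). With the count minimum of the main fit, and so 7171 genes, the block in DESeq2 called 373, all 20 among them. In the fit without the block, each of the 20 had the same direction but only Adh1 passed. The adjusted p-values of both fits are therefore given below for most of the 20.

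**Figure D2:**
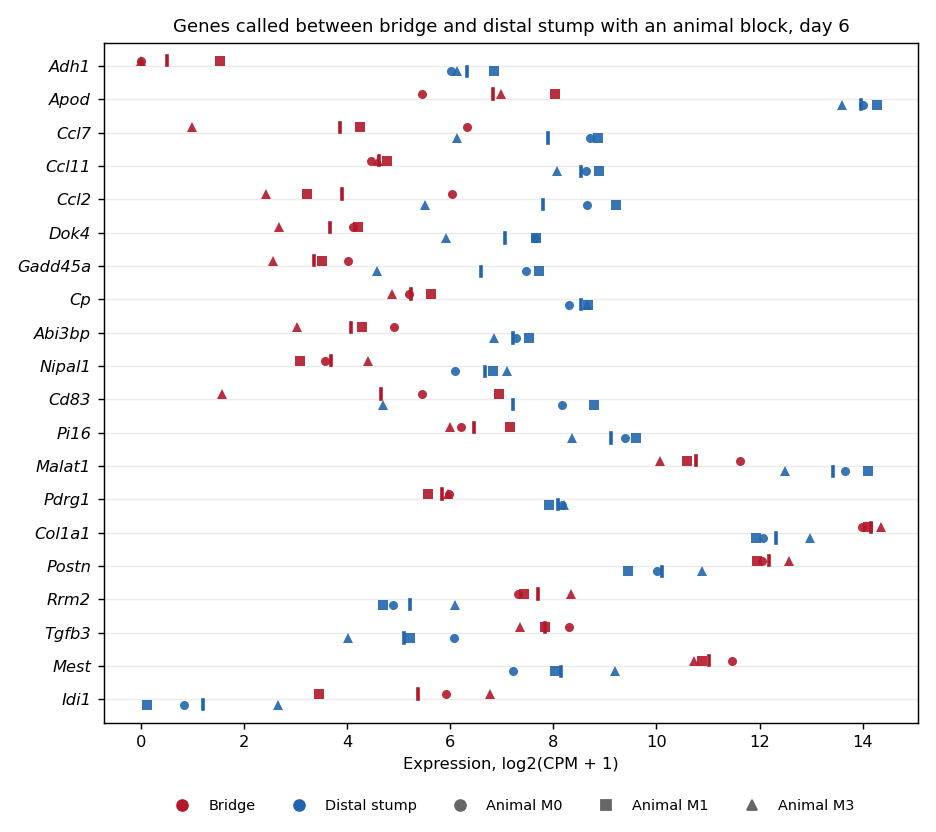
Expression in log2(CPM + 1) of the 20 genes called with the animal block, for the 3 bridge (red) and 3 distal stump (blue) libraries, with a symbol for each animal and a bar at the mean of each group. Among the genes lower in the bridge the group means lie furthest apart for Apod and Adh1, and among those higher for Idi1 and Mest.

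Among the 14 genes that fell in bSCs with the block, the most abundant in the distal stump was Apod. Apolipoprotein D is a secreted lipid carrier known to be induced in injured peripheral nerve, and its gene lies on chromosome 16 from 31296278 to 31314894 on the minus strand. It was at 43.0, 261 and 126 CPM in the bridges and at 16520, 19870 and 12420 CPM in the distal stumps, so that every distal stump exceeded every bridge by a wide margin. The log2 fold change was -6.83 ± 1.84 without the block (edgeR adjusted p = 0.469) and -7.12 ± 0.55 with it (edgeR adjusted p = 1.74e-04). In intact nerves the median was 1615 CPM. Malat1, a long nuclear RNA on chromosome 19, was at 3151, 1547 and 1080 CPM in the bridges and at 12950, 17580 and 5737 CPM in the distal stumps. No bridge library reached any distal library, and the log2 fold change was -2.64 ± 0.37 with the block (edgeR adjusted p = 0.0189, 0.576 without it).

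Chemokines made up 3 of the 14 genes, and they sit side by side on chromosome 11: Ccl2 from 81849073 to 81850955, Ccl7 from 81859214 to 81861027 and Ccl11 from 81871325 to 81876457. Ccl11, eotaxin, which attracts eosinophils, was at 21.0, 26.5 and 23.2 CPM in the bridges and at 397, 471 and 268 CPM in the distal stumps. The groups were far apart in every animal, and the log2 fold change was -3.97 ± 0.44 with the block (edgeR adjusted p = 0.00501, 0.379 without it). Ccl2, which recruits monocytes, was at 64.7, 8.36 and 4.38 CPM in the bridges and at 400, 592 and 44.7 CPM in the distal stumps. Here the groups overlapped, because the distal stump of M3 lay below the bridge of M0, while within each animal the bridge was the lower (log2 fold change -3.95 ± 0.68 with the block, edgeR adjusted p = 0.0431, 0.573 without it). Ccl7, a neighbouring monocyte chemokine, also had overlapping groups, at 79.2, 18.0 and 0.988 CPM against 416, 465 and 69.1 CPM. The maturation marker Cd83, found on dendritic and other immune cells, was at 43.1, 122 and 1.98 CPM in the bridges and at 285, 443 and 24.8 CPM in the distal stumps. The groups of Cd83 overlapped as well. In the distal stumps Ccl2, Ccl7 and Cd83 had the order of the macrophage sums, with M1 highest and M3 lowest. That order was not particular to them, since Apod, Malat1, Ccl11, Pi16, Abi3bp, Dok4 and Gadd45a had it too. In the bridges Cd83 also had the order of the macrophage sums, with M1 highest and M3 lowest, whereas Ccl2 and Ccl7 were highest in M0. The part of macrophages in Ccl2, Ccl7 and Cd83 was not tested.

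The other 7 genes that fell with the block have varied roles. Pi16, a peptidase inhibitor that marks fibroblasts of the outer nerve sheath, was at 73.2, 142 and 63.2 CPM in the bridges and at 668, 777 and 328 CPM in the distal stumps. Its groups did not overlap (log2 fold change -2.67 ± 0.41 with the block, edgeR adjusted p = 0.0283, 0.576 without it). Abi3bp, a matrix binding protein, was at 29.2, 18.6 and 7.16 CPM against 155, 184 and 115 CPM, and Cp, the copper carrier ceruloplasmin, at 35.8, 48.5 and 28.2 CPM against 314, 405 and 401 CPM. Both were lower in every bridge than in any distal stump. Dok4, an adaptor of receptor tyrosine kinases, was at 16.3, 17.6 and 5.43 CPM against 198, 202 and 59.2 CPM, and it came closest to Adh1 in the fit without the block (log2 fold change -3.54 ± 0.70, edgeR adjusted p = 0.0755, 0.0156 with the block). The stress gene Gadd45a, which restrains the cell cycle after DNA damage, was at 15.1, 10.4 and 4.88 CPM against 176, 211 and 22.8 CPM. The remaining genes that fell with the block were Pdrg1 and Nipal1, with log2 fold changes of -2.27 ± 0.40 and -3.09 ± 0.55, and neither had overlapping groups.

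The 6 genes that rose in bSCs with the block were Mest, Postn, Col1a1, Tgfb3, Rrm2 and Idi1. Mest, an imprinted gene of mesodermal tissue on chromosome 6 from 30673547 to 30698457, was at 2845, 1878 and 1701 CPM in the bridges and at 148, 261 and 585 CPM in the distal stumps. All bridges lay above all distal stumps, although the ratio was smallest in M3, and the log2 fold change was 2.89 ± 0.52 with the block (edgeR adjusted p = 0.0475, 0.576 without it). The intact nerves had a median of 77.2 CPM of Mest. Postn, the matrix protein periostin, was at 4257, 3933 and 6124 CPM in the bridges and at 1029, 701 and 1878 CPM in the distal stumps. Col1a1, a chain of type I collagen, was at 16310, 17710 and 21080 CPM in the bridges and at 4277, 3911 and 8052 CPM in the distal stumps. For both genes M3 was the highest animal in each region, and the groups did not overlap. The log2 fold change with the block was 2.09 ± 0.34 for Postn (edgeR adjusted p = 0.0307, 0.750 without it) and 1.84 ± 0.30 for Col1a1 (edgeR adjusted p = 0.0338, 0.770 without it).

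Tgfb3, a ligand of the TGFβ family, was at 316, 229 and 164 CPM in the bridges and at 66.7, 36.2 and 15.2 CPM in the distal stumps. Its order over the animals was the same in both regions, M0 highest and M3 lowest, and the log2 fold change was 2.78 ± 0.45 with the block (edgeR adjusted p = 0.0307, 0.576 without it). Idi1, an enzyme of the isoprenoid and cholesterol pathway, was at 59.3, 9.93 and 108 CPM in the bridges and at 0.776, 0.0826 and 5.36 CPM in the distal stumps. The distal stump of M1 held 1 count of Idi1 in all, so the size of its fold change (log2 5.59 ± 0.84 with the block, edgeR adjusted p = 0.0272, 0.353 without it) rests on very few reads on the distal side. Intact nerves held 135 to 718 CPM of Idi1, more than either region.

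DNA replication had the highest median of the gene lists. Of 35 listed genes 20 were tested and 15 were under the count minimum. Of the 20, 11 were higher in all bridges than in all distal stumps and 0 were lower, where 10.1% of all genes tested were higher without overlap and 10.3% lower (20.4% in either direction). In 13 of the 20 the bridge was the higher in each of the 3 animals, against 19.1% of all genes tested, and in 0 it was the lower in each. The median log2 fold change was 1.53 over the list and -0.01 over all genes tested, and within animals the median log2 difference was 1.83 in M0, 1.80 in M1 and 0.92 in M3. A single member passed, and only with the block. It was Rrm2, the small subunit of ribonucleotide reductase, which makes deoxyribonucleotides, at 159, 172 and 324 CPM in the bridges and at 28.5, 25.0 and 67.3 CPM in the distal stumps. Both regions were highest in M3, and the log2 fold change was 2.52 ± 0.42 with the block (edgeR adjusted p = 0.0354, 0.576 without it).

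Rrm1, which encodes the large subunit of the same enzyme, was at 238, 297 and 293 CPM in the bridges and at 10.98, 43.4 and 93.3 CPM in the distal stumps. Mcm6, part of the helicase that opens DNA at origins, was at 207, 188 and 212 CPM in the bridges and at 30.0, 25.7 and 73.9 CPM in the distal stumps. Neither gene had overlapping groups, and both missed the threshold narrowly with the block (edgeR adjusted p = 0.0513 for each) and clearly without it (0.576 and 0.648). Mcm2, Mcm4 and Mcm7 of the same helicase, the clamp loader subunit Rfc5, the polymerase subunit Pold1, the flap nuclease Fen1, the cyclin Ccne2 and the thymidylate synthase Tyms completed the 11. Pcna, the sliding clamp, was at 169, 56.7 and 124 CPM in the bridges and at 52.4, 65.7 and 95.7 CPM in the distal stumps, and its groups overlapped through M1. The groups of the other 8 tested members overlapped too.

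**Figure D3:**
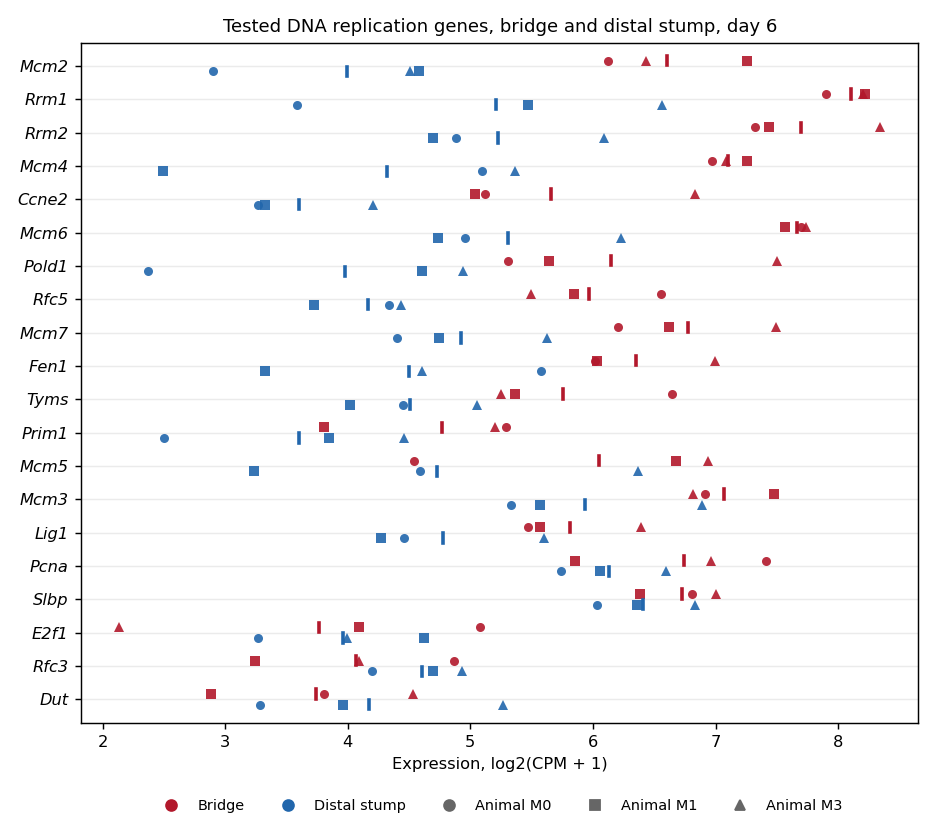
Expression in log2(CPM + 1) of the 20 DNA replication genes that reached the count minimum, ordered by fold change, with bridge libraries in red, distal stump libraries in blue, a symbol for each animal and a bar at each group's mean. In 11 genes all red symbols lie to the right of all blue ones, from Mcm2 at the top down to Tyms.

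E2F factors control many replication genes, so the promoters of the list were searched for the E2F letters TTTCCCGC, TTTCGCGC, TTTGCCGC and TTTGGCGC on both strands, in the 250 bases before the start of each gene as RefSeq gives it on GRCm38.p6 (the first start listed). At least 1 match was found in 4 of the 18 tested replication genes that had a promoter sequence (22.2%), in Mcm5, Mcm6, Mcm7 and Rfc3, and in 192 of 5482 promoters of all genes tested (3.50%). Of these 4, Mcm6 and Mcm7 had groups without overlap and Mcm5 and Rfc3 did not. The sequences of Mcm6 (chr1:128359706-128359955, minus strand) and Mcm7 (chr5:138171884-138172133, minus strand) are shown 5′ to 3′ because they are the 2 members of the 11 with a match, with the matching letters in capitals. Mcm6 holds 3 matches, 2 of which overlap on opposite strands, and Mcm7 holds 1.
Mcm6: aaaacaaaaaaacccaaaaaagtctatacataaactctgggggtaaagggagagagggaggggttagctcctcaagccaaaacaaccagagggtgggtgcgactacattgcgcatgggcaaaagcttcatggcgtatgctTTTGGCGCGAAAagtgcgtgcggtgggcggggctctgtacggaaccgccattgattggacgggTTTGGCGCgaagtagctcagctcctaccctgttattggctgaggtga
Mcm7: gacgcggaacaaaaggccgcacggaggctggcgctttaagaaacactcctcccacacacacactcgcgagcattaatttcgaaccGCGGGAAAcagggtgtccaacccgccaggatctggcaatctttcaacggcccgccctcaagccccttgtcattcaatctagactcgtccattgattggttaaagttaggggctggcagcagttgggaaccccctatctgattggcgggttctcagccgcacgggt
A match is a description of these letters and not evidence of binding.

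Mitosis genes had the same direction. Of 40 listed, 15 were tested, 7 were higher in all bridges than in all distal stumps and 0 were lower, with a median log2 fold change of 1.06. Over all genes tested 10.1% were higher and 10.3% lower without overlap. In 11 of the 15 the bridge was the higher in every animal, against 19.1% of all genes tested. The medians within M0, M1 and M3 were 1.25, 1.30 and 1.01. No mitosis gene passed in edgeR, with or without the block. The same E2F search found a match in 1 of the 11 tested mitosis genes with a promoter sequence (9.09%), against 3.50% of all genes tested. Top2a, the topoisomerase that untangles sister chromosomes, was at 178, 207 and 299 CPM in the bridges and at 38.4, 26.2 and 128 CPM in the distal stumps. Ccna2, cyclin A2, was at 154, 161 and 144 CPM in the bridges and at 66.7, 56.4 and 64.1 CPM in the distal stumps. Racgap1, which works in cytokinesis, was at 88.9, 120 and 250 CPM against 27.5, 18.0 and 43.6 CPM, and Anln, Ccnb2, Cdc20 and Smc2 completed the 7. The proliferation marker Mki67 was under the count minimum and lower in the bridge of each animal, at 19.7, 3.89 and 48.7 CPM in the bridges and 24.1, 29.3 and 76.8 CPM in the distal stumps. Of 9 tested genes of cell cycle control, 2 were higher without overlap (Ccnd3 and Cdkn1c) and 1 was lower (Cdkn2b), with a median of 0.01.

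The median of the mesenchymal and EMT genes was above 0 in M0 and M1 and slightly below 0 in M3. Of 31 tested, 11 were higher without overlap and 2 lower, against 10.1% and 10.3% of all genes tested. In 11 the bridge was the higher in each of the 3 animals, against 19.1% of all genes tested, and in 2 the lower. The median log2 fold change was 0.62, or 0.37 with the block. Only Postn passed, with the block. The medians within animals were 1.01 in M0, 0.54 in M1 and -0.11 in M3, where the median over all genes tested was -0.06. Beside Postn, the list held Tnc, the matrix protein tenascin C, at 3175, 2148 and 1483 CPM in the bridges and 836, 792 and 682 CPM in the distal stumps. The groups of Tnc did not overlap, but it did not pass (log2 fold change 1.56 ± 0.88 without the block, edgeR adjusted p = 0.797, 0.107 with it). Lox, a lysyl oxidase that crosslinks collagen, was at 1364, 705 and 250 CPM in the bridges and at 137, 129 and 92.1 CPM in the distal stumps and M3 was the lowest animal in the bridge. Cdh2, N-cadherin, was at 75.3, 87.4 and 93.7 CPM against 51.6, 50.1 and 36.3 CPM, without overlap and without passing (log2 fold change 0.89). Vim and Tgfbi, which encode vimentin and a secreted adhesion protein, were the 2 members lower without overlap. Vim was at 1451, 802 and 1305 CPM in the bridges and at 3120, 2551 and 1742 CPM in the distal stumps.

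Collagens and basal lamina genes gave 8 of 28 tested higher without overlap and 1 lower, against 10.1% and 10.3% of all genes tested. Their median was 0.40, with medians of 0.12, 0.77 and 0.40 within M0, M1 and M3. Without the bridge of M3 the fitted median was -0.02. The 8 were the fibril-forming or fibril-associated chains Col1a1, Col1a2, Col3a1, Col5a2 and Col12a1 and the microfibril chains Col6a1, Col6a2 and Col6a3. Col1a2 was at 11320, 10710 and 12520 CPM in the bridges and at 4954, 4312 and 7449 CPM in the distal stumps. The laminin and nidogen genes of basal lamina all had overlapping groups, and Col28a1, at 13.7, 86.1 and 113 CPM against 253, 176 and 143 CPM, was the single lower member. Among 30 tested genes of other matrix proteins, 4 were higher and 6 lower without overlap, against the same 10.1% and 10.3% of all genes. Dcn, the proteoglycan decorin, was at 2546, 2461 and 2647 CPM in the bridges and at 7388, 8293 and 7627 CPM in the distal stumps, a steady difference over the animals that missed the threshold (log2 fold change -1.60 ± 0.31 with the block, edgeR adjusted p = 0.0513, 0.534 without it). Lum, lumican, was at 773, 1553 and 1556 CPM against 2681, 2516 and 3759 CPM, and Aspn, asporin, had the opposite direction at 929, 203 and 264 CPM against 172, 149 and 96.1 CPM.

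The fibroblast and perineurial list therefore split. Its sum was 45558, 47335 and 55119 CPM in the bridges and 29512, 30408 and 39429 CPM in the distal stumps, higher in every bridge, and Col1a1, Col1a2 and Col3a1 alone were its members higher without overlap. Dcn, Lum, Pi16, Clec3b, Osr2 and Itgbl1 were lower without overlap, and the median log2 fold change of the 15 tested was -0.49. Pdgfra, a receptor by which fibroblasts are commonly identified, was at 141, 273 and 72.9 CPM in the bridges and at 107, 99.1 and 141 CPM in the distal stumps, with overlapping groups. How much of these levels comes from fibroblasts in the sort was not tested.

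Of 21 inflammatory mediators tested, 2 were lower without overlap and 0 higher, near the share over all genes, and 12 were lower in each of the 3 animals, against 20.2% of all genes tested. The median log2 fold change was -0.47, and within M0, M1 and M3 the medians were -1.05, -0.87 and -1.41. The fitted median was -0.84 with the block and -1.27 with filterByExpr, over all 37 listed. Ccl2 and Ccl7 passed with the block, as given above. C3, the central component of complement, was at 39.8, 78.7 and 11.9 CPM in the bridges and at 391, 273 and 494 CPM in the distal stumps. The highest C3 level was in the distal stump of M3, the distal library with the lowest macrophage sum, and the gene did not pass (log2 fold change -3.45 ± 0.66 with the block, edgeR adjusted p = 0.0513, 0.694 without it). Serping1, the inhibitor of complement C1, was at 706, 877 and 331 CPM in the bridges and at 1513, 1599 and 2407 CPM in the distal stumps, also highest in the distal stump of M3. Nfkbia, the inhibitor that NF-κB induces to end its own activity, was at 102, 50.7 and 65.3 CPM against 475, 411 and 98.8 CPM, lower in the bridge of each animal with overlapping groups. Nfkbiz, a related factor, was at 3.98, 10.3 and 14.5 CPM against 200, 141 and 42.8 CPM, without overlap, and is outside the list.

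The NF-κB consensus was searched in the same way on both strands and found in 3 of the 13 tested inflammatory genes with a promoter sequence (23.1%), in Ccl9, Csf1 and Nfkbia, and in 233 of 5482 promoters of all genes tested (4.25%). The promoter of Nfkbia (GRCm38.p6, chr12:55492648-55492897, minus strand) is shown because its transcript has the lowest unadjusted p of the 3 in the fit without the block. It holds 1 match, in capitals.
Nfkbia: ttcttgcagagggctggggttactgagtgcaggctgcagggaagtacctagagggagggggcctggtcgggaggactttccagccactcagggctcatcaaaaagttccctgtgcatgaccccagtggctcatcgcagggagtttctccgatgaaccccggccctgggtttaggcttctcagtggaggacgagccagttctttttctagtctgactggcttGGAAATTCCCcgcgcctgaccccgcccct

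Macrophage markers had the most negative median of the lists with at least 8 genes tested, -1.12 over 15 genes. The medians were -1.05, -1.02 and -1.39 in M0, M1 and M3. Of the 15, 9 were lower in each animal, against 20.2% of all genes tested. The fitted median was -0.66 without the bridge of M3 and -0.69 without the distal stump of M1. Lyz2, lysozyme, the most abundant of them, was at 2241, 2712 and 287 CPM in the bridges and at 6627, 7349 and 1338 CPM in the distal stumps. The list was not uniform, since Cx3cr1, a chemokine receptor, was higher in all bridges (77.8, 119 and 135 CPM) than in all distal stumps (64.1, 64.9 and 54.0 CPM). Genes of the lysosome and lipid clearance had a median of -0.44 over 36 tested, and 15 of them were lower in each animal, against the same 20.2%. Glb1, the lysosomal beta-galactosidase, was the single member higher without overlap among the 9 with a fold change above 0, at 81.4, 155 and 103 CPM in the bridges and 56.4, 2.81 and 30.8 CPM in the distal stumps.

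Immediate early genes differed between animals. Over 19 tested, the median log2 difference within the animal was -1.65 in M0 and -2.22 in M1 but 0.20 in M3. Of the 19, 4 were lower without overlap and 0 higher, against 10.3% and 10.1% of all genes tested. Fosb, a member of AP-1, was at 14.4, 25.3 and 15.7 CPM in the bridges and at 180, 121 and 28.7 CPM in the distal stumps. Atf3, a transcription factor induced by nerve injury, was at 19.0, 36.4 and 9.20 CPM in the bridges and at 444, 409 and 29.3 CPM in the distal stumps. In both genes the distal stumps of M0 and M1 stood far above that of M3, and neither passed in edgeR (Atf3 log2 fold change -3.77 without the block).

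**Figure D4:**
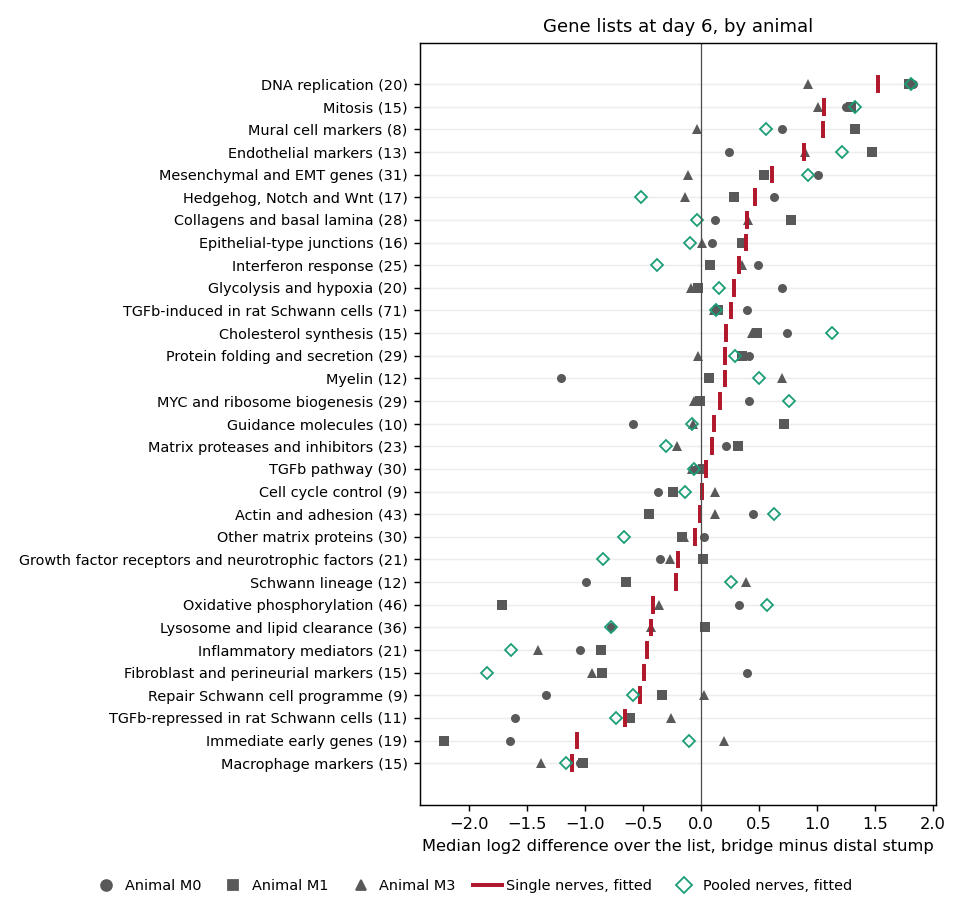
Median log2 difference between bridge and distal stump over the tested genes of each list with at least 8 tested (their number in brackets), for each animal (grey symbols), in the fit of single nerves (red bar) and in the fit of pooled nerves (green diamond). Lists that keep 1 direction in all 3 animals and in the pools include DNA replication, mitosis, cholesterol synthesis, inflammatory mediators, and macrophage and endothelial markers. Immediate early genes and oxidative phosphorylation are among those that do not.

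Oxidative phosphorylation genes also differed in direction between animals. All 46 were tested, and 7 were lower and 1 was higher without overlap, against 10.3% and 10.1% of all genes tested. The median was -0.41, but the medians within animals were 0.33 in M0, -1.71 in M1 and -0.36 in M3. The lower members included Cox6c, Ndufa1 and Ndufa2, subunits of the respiratory chain, and Ndufa1 was at 19.0, 16.1 and 19.5 CPM in the bridges and 43.1, 110 and 46.3 CPM in the distal stumps. Its highest value was in the distal stump of M1. SC lineage genes, myelin genes and genes of the repair SC programme also changed sign between animals, with medians within M0, M1 and M3 of -0.99, -0.65 and 0.39, of -1.21, 0.07 and 0.70, and of -1.34, -0.34 and 0.03. Ncam1, a cell adhesion molecule of immature and non-myelinating SCs, was the single lineage marker without overlap among those tested, at 397, 307 and 639 CPM in the bridges and at 67.9, 45.7 and 225 CPM in the distal stumps. Ncam1 did not pass (log2 fold change 2.28 ± 0.43 with the block, edgeR adjusted p = 0.0513, 0.820 without it).

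Of the remaining lists, 9 of 29 tested genes of protein folding and secretion were higher without overlap and 1 was lower. Over all genes tested 10.1% were higher and 10.3% lower without overlap. The higher members included P4hb, a subunit of collagen prolyl hydroxylase, at 1878, 1394 and 1487 CPM against 698, 672 and 929 CPM. Cholesterol synthesis gave 4 of 15 higher and 0 lower (Idi1, Srebf2, Cyp51 and Dhcr7), and interferon response genes 6 of 25 higher and 0 lower. In the TGFβ pathway 1 of 30 tested was higher without overlap (Tgfb3) and 2 were lower (Smad4 and Ltbp3), near or below the share over all genes. The genes induced by TGFβ in cultured rat SCs, a list that comes from other samples of the series, had a median of 0.25 over 71 tested, with 4 higher and 5 lower without overlap, and the repressed ones a median of -0.66 over 11 tested, with 1 higher and 2 lower. Glycolysis, MYC targets, matrix proteases, guidance molecules, growth factor receptors, junctions and actin genes had medians between -0.20 and 0.39, and no member of them passed in edgeR with or without the block. Hedgehog, Notch and Wnt genes had a median of 0.47 over 17 tested, Eph and ephrin genes one of 0.20 over 5, and mural cell markers one of 1.06 over 8. With filterByExpr these medians were 0.16, 0.49 and 0.32. Endothelial markers had a median of 0.88 over 13 tested, and their groups overlapped for every member. Of the 13, 8 were higher in the bridge of each animal, against 19.1% of all genes tested. Without the bridge of M3 the endothelial median was -0.14. Wif1 and Epha5 were under the count minimum and low or nearly absent in the bridge: Wif1, a secreted WNT inhibitor, was at 0.0765, 29.4 and 0.0618 CPM against 251, 311 and 635 CPM, and Epha5, a receptor of ephrins, at 0.0765, 17.1 and 0.803 CPM against 153, 129 and 37.8 CPM.

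The differences at day 6 were compared with those of other days in single nerves, which share no library with them. No gene had a regional difference that differed from day 4, 8 or 10 at an adjusted p of 0.05 in edgeR (0 genes each, with 131, 112 and 230 genes at an unadjusted p under 0.05). DESeq2 called 1 gene in each of these comparisons, and edgeR with the animal block over 11 pairs called 0, 0 and 5. The 20 genes called with the block at day 6 kept their direction in 18 cases at day 4, in 20 at day 8 and in 16 at day 10, against 54.0%, 53.6% and 49.8% of all genes tested. Their median log2 difference in the direction of day 6 was 0.49, 0.99 and 1.79 at days 4, 8 and 10. At day 10 the labels of 1 bridge library disagree on its animal number, which bears on the pairing in the blocked fit and not on the region of any library. For Adh1 the log2 fold changes were -0.69, -0.74 and -2.33 at those days, each smaller than at day 6.

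As a replication check, the same regions were compared in other animals, in 4 bridge and 4 distal stump libraries of day 6 that each pooled the nerves of 3 mice. There 746 of 13751 genes passed an adjusted p of 0.05 in edgeR (5.43%), 318 higher in the bridge (2.31%) and 428 lower (3.11%). The labels give bridge and distal pools the same animal numbers, and with these as a block 132 genes passed (50 higher, 82 lower). All 20 genes called with the block in single nerves had the same direction in the pools, and 15 of them passed there, where 61.5% of all 7171 genes had the same direction in both experiments. Their median log2 fold change, counted in the direction of the single nerves, was 3.04 in single nerves and 2.96 in the pools. Adh1 passed in the pools (log2 fold change -4.82, edgeR adjusted p = 0.00615), as did Apod (-6.28, 0.00206) and Ccl11 (-4.54, 0.00403). Col1a1, Dok4, Idi1, Tgfb3 and Ccl7 did not pass in the pools, with log2 fold changes of 0.59, -1.73, 2.10, 1.38 and -2.53.

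Conversely, 521 of the genes called in the pools were tested in single nerves, and 431 of them (82.7%) had the same direction there. Of the 521, 200 (38.4%) did not overlap between the groups in that direction and 2 did not overlap in the other. The share with the same direction was 88.8% of 224 genes lower in the pools and 78.1% of 297 genes higher. Across the 7171 genes the log2 fold changes of the single and pooled nerves had a Pearson's r of 0.439 and a Spearman's rho of 0.378, given as a description because genes are not independent. DNA replication (10 of 35 tested genes higher, 0 lower, median 1.81) and mitosis (5 of 40 higher, 0 lower, median 1.33) had the same direction in the pools. So did inflammatory mediators (0 of 35 higher, 7 lower, median -1.64) and, by the fitted median, mesenchymal and EMT genes (11 of 39 higher, 1 lower, median 0.92). Oxidative phosphorylation did not, with 10 of 46 higher, 0 lower and a median of 0.57, nor did collagens and basal lamina as a list, with 1 higher, 3 lower and a median of -0.04. Other lists also had a pooled median of the opposite sign. Among them were interferon response genes (0 of 31 higher, 0 lower, median -0.38) and Hedgehog, Notch and Wnt genes (0 of 40 higher, 4 lower, median -0.52). The macrophage sum was between 3499 and 11340 CPM in the pooled bridges and between 12839 and 21204 CPM in the pooled distal stumps, also lower in the bridge, and the fibroblast and perineurial sum was between 20527 and 37008 CPM in the pooled bridges and between 36280 and 52768 CPM in the pooled distal stumps, whereas in single nerves it was higher in every bridge.

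**Figure D5:**
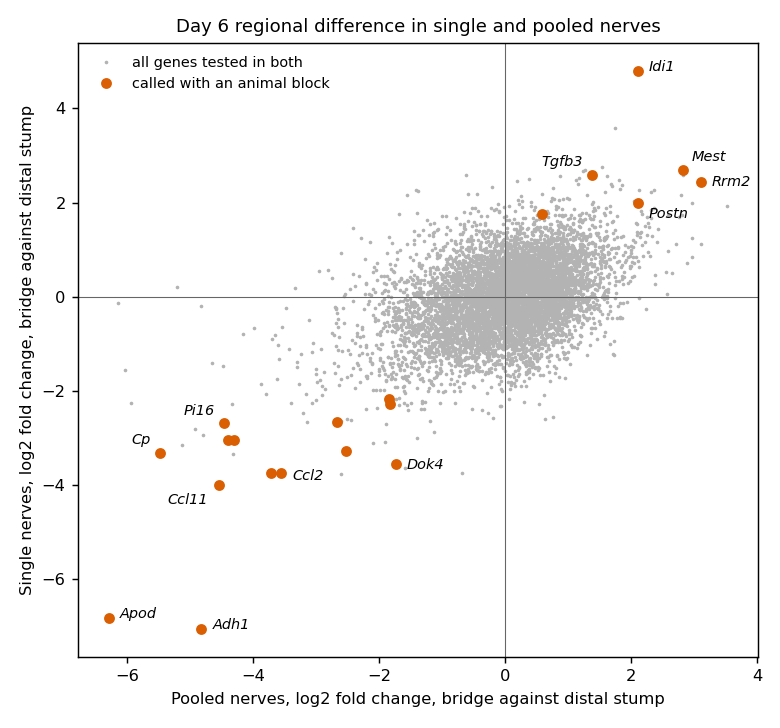
Log2 fold change between bridge and distal stump at day 6 in single nerves (vertical axis) against pooled nerves (horizontal axis) for the 7171 genes tested in both (grey), with the 20 genes called with the animal block in orange. All 20 lie in the lower left or the upper right quadrant.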

How the data were processed

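RNA of sorted tdTomato+ cells was amplified by Smart-seq2 and sequenced. The deposited files give raw counts per gene for each library, which the authors made, per the submitters' processing notes, with TopHat2 2.0.11, HTSeq and build mm9. Summary and spike-in lines were left out of library sizes. Genes with at least 100 counts in 85% of the 35 single-nerve libraries were tested with edgeR 4.0.16 in R 4.3.3 (quasi-likelihood test, TMM scaling, group means over all 35 libraries, Benjamini-Hochberg adjustment, threshold 0.05). CPM values use the TMM-scaled library sizes, and differences within animals are on the log2(CPM + 1) scale, which understates changes of low genes. DESeq2 1.42.0, other filters and scaling, the animal as a block and leaving out each library were alternatives.

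The pairing comes from the animal identifiers in the labels. Deviations from the group means correlated at 0.04 in M0, 0.00 in M1 and 0.27 in M3 within animals, and at -0.21 to 0.14 between animals. In single nerves, p-values without the block use the spread within groups over all single-nerve libraries, with 24 residual degrees of freedom. Those with the block use the spread left after differences between animals are removed, with 2 residual degrees of freedom. Both fits add information from other genes, with 5.80 prior degrees of freedom without the block and 9.72 with it. The day 6 difference itself rests on 3 animals per group. The 35 libraries behind the spread of the main fit were uneven. Their 50 most abundant genes held 14.8 to 49.5% of the gene counts, against 17.1 to 22.1% in the 6 libraries of day 6. The paper kept fewer intact single nerves than were used here.

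Counts of 7171 genes, with 100 genes changed at each fold size, were simulated separately for each fit from its own spread. The fit without the block recovered 19 of the 4-fold and 76 of the 16-fold changes and called 1 unchanged gene. The fit with it recovered 38 and 94 and called 3 unchanged genes. The simulated spread differs between the fits, so these numbers do not compare their power.

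Members and the 34 gene lists were chosen with earlier results of these data known. Named genes were those that passed, up to 10 per direction with the smallest p and no overlap, the most abundant 3 of each list and up to 4 per list without overlap. Other genes were named after their values were seen. Rat files were not used here, other than through a gene list. Positions are from NCBIM37 (mm9), and promoters from RefSeq on GRCm38.p6.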

Additional observations from a re-analysis of the deposited data

Results flagged for a closer look

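In groups of 4 to 10 libraries, the highest and lowest values were compared with the rest of their group. This covered the SC lineage, macrophage, endothelial, and fibroblast and perineurial sums in intact single nerves and in the bridge and distal pools. In these pools it also covered the 20 genes called with the animal block. Other named genes and the gene lists were not searched. Of 52 such groups 2 held a value that stood apart, and chance flags about 1 in 20. Adh1 was at 163 CPM in 1 of the 4 pooled distal libraries, and the next was at 71.2 CPM. Pdrg1 was at 128.5 CPM in 1 of the 4 pooled bridge libraries, and the next was at 99.7 CPM. Groups of 3 single nerves are too small for this comparison.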

How the results depend on the processing

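Without the block, 1 gene passed in edgeR, 14 in DESeq2, 2 without a filter on low counts and 3 in the 6 libraries alone. Leaving out 1 library gave 0 (bridge of M0 or of M3) to 6 genes (distal stump of M3). With the animal as a replicate block, for which the labels give the pairing, 20 genes passed, 16 with DESeq2 size factors, 373 in DESeq2 and 0 with the looser filterByExpr filter, where 12704 genes were tested and 1139 had an unadjusted p under 0.05. A block over all pairs of days 4 to 10 called 1 gene. Without M0, M1 or M3 the blocked count was 9, 0 and 98. The combinations of the block with another tool, filter, scaling or left-out animal were chosen after seeing the data. The 20 genes kept their direction in all these settings, and the cause of the differences in count was not tested. The regional difference at day 6 against day 4, 8 and 10 gave 0 genes in edgeR, 1 each in DESeq2, 0 to 1 when 1 library was left out (1 without the bridge of M1), and 5 against day 10 with the block over all pairs. In the pools 746 genes passed, 1939 in DESeq2, 132 with the pool number as a block and 325 (without distal pool 5) to 806 (without bridge pool 1) when 1 library was left out, with 359, 497 and 437 without distal pool 1, distal pool 2 and bridge pool 5.

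Of the list medians recomputed under alternatives for 10 lists, 23 moved by more than the spread between animals and 167 did not. Those that moved were of mitosis, inflammatory mediators, macrophage markers, collagens and basal lamina, and endothelial markers. Lists outside these 10 were compared only with and without the block. With it the median went from 0.20 to -0.26 for myelin genes and from -0.21 to -0.65 for SC lineage genes. It went from -0.49 to -0.87 for fibroblast and perineurial markers, from 0.33 to 0.57 for interferon genes and from 0.21 to 0.37 for cholesterol synthesis. Of the single genes, Csf1 turned to -0.56 with the block without M1 and ranged from -0.23 to 1.01 over left-out libraries. Pdgfra turned to -0.27 with the block without M1 and ranged from -0.10 to 0.80. With 3 animals a group, and 19 of 100 simulated 4-fold changes recovered without the block, smaller differences were mostly not detectable.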
